A study of Homo sapiens with 19 samples.

Results

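The comparison described here sets the 2 ploidy sublines of 1833 against the 2 ploidy sublines of 4175, 4 of the 19 arrays of the series. The arrays were chosen by their titles alone, with no measured value used, and were paired by ploidy. The series profiled messenger RNA on 1 array for each of 19 human breast cancer cell lines that all descend from MDA-MB-231, including the parental line and lines that colonise bone or lung strongly or weakly in mice. Line 1833 is labelled strongly bone-metastatic and line 4175 strongly lung-metastatic. From each of these the series held a modal-ploid subline, with the usual chromosome content of the line, a hyper-ploid subline, with a raised content, and the original line after short culture. The 4 groups used below were the 1833 ploidy sublines (2 arrays), the 4175 ploidy sublines (2), the strong bone lines 1833, 2274, 2268 and 2269 (4) and the strong lung lines 4142, 4173, 4175 and 4180 (4), and the weak lines entered the estimate of spread and, with the parental line, the ranges over the 15 arrays other than the ploidy sublines. All cells shared the MDA-MB-231 origin, the same medium with serum and unnamed selective drugs, and harvest before confluence. Each subline is a single culture measured once, so an 1833 against 4175 difference compares 2 cell populations of each line that also differ in ploidy, and p-values reflect only the spread between these arrays. In the 4-array fit that spread came mostly from a value shared over genes, with 1 residual degree of freedom against a prior of 11.1. The comparison asks which genes still separate a bone-seeking from a lung-seeking line when both sides are ploidy sublines.

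Lines such as 1833 and 4175 were obtained by letting tumour cells grow in an animal, taking the cells that reached an organ, and culturing them again. Cells that colonise bone are known for secreted factors that act on bone-resorbing and bone-forming cells and for the homing receptor CXCR4. Cells that colonise lung are known for genes that loosen vessel walls, remodel matrix and support growth among lung cells, including SPARC, VCAM1, TNC and EREG.

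Spike-in and 18S ribosomal RNA levels, which differed between most bone and lung line arrays, lay closer together on the 4 ploidy arrays. Median signals did not separate bone from lung line arrays but set the ploidy arrays apart from both. They were 89.3 to 97.8 units on the 4 ploidy arrays, against 124 to 163 units on the other 15 arrays. After scaling, the mean log2 level of 18 spike-in probe sets was 10.4 and 10.4 in the 1833 sublines and 10.4 and 10.2 in the 4175 sublines, but 11.3 to 11.9 on the parental and bone line arrays and 10.3 to 10.99 on the lung line arrays. The mean log2 level of 6 probe sets for 18S ribosomal RNA was 6.98 and 5.14 in the 1833 sublines and 5.71 and 5.06 in the 4175 sublines; it was 10.8 to 12.5 on 6 lung line arrays and 5.29 to 6.46 on the remaining 9. In the marker counts that follow, the brightest of all probe sets of a gene on each array was compared with that array's 40th percentile. The breast line markers VIM, KRT8, KRT18, CD44, EGFR, ERBB2 and GATA3 lay above the array's 40th percentile on all 4 ploidy arrays, while CDH1, FOXA1 and PGR lay at or below it on all 4. ESR1 lay above it on 3 of the 4. Of 21 leukocyte markers on the array 8 lay at or below it on all 4, among them PTPRC, CD79A and SPI1. Above it on all 4 lay 5, CD8A, ITGAM, LAPTM5, CD53 and HBB. Of 22 endothelial and stromal markers 15 lay at or below it on all 4, among them CDH5, VWF and PDGFRB. The 6 above it on all 4 were PECAM1, ENG, CD34, DCN, COL1A1 and ACTA2. Of 8 lung epithelium markers 2 lay at or below it on all 4, and 2, SFTPB and SFTPC, above it. Among 10 bone cell markers 4 lay at or below it on all 4, and 3, PHEX, TNFRSF11B and CTSK, above it. The summed signal of the 16 leukocyte markers tested was 2554 and 2953 in the 1833 sublines and 6049.9 and 4228 in the 4175 sublines, of which LAPTM5 alone gave 1252 and 1573 against 4391 and 2516; the list's median log2 difference was -0.04, with 8 members above and 8 below 0. That of the 10 endothelial and stromal markers was 1392 and 1181 against 1328 and 1303. Their part in the results below was not tested.

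MAGEA6, AGR2, CCL2 and INHBB had the largest positive and SPARC, IL13RA2, TGFBI and CADM1 the largest negative differences in the 1833 relative to the 4175 sublines. Of 9546 genes tested with limma, 521 (5.46%) passed an adjusted p of 0.05, 266 higher (2.79%) and 255 lower (2.67%) in the 1833 sublines. All 521 differed in the same direction in both ploidy pairs with no overlap between lines and by more than 2-fold, and 95 differed by more than 4-fold. In a fit with 1 residual degree of freedom, only genes with a shared direction and about a 2-fold difference could pass. Those traits of the called genes were therefore fixed by the threshold and are no added support. Over all genes the 2 lines did not overlap for 4985 (52.2%), so that absence of overlap alone is common here. Without a statistical model, 327 genes (3.43%) differed by more than 2-fold in the same direction in both pairs, 170 higher and 157 lower, and 24 did so in opposite directions. The modal-ploid pair gave 766 genes over 2-fold and the hyper-ploid pair 1137. Across genes the differences of the 2 pairs had r = 0.52 (Spearman's correlation 0.43), a description over genes, which are not independent. Line accounted for 61.1% of the sum of squares over genes and arrays about each gene's mean, ploidy for 18.7%, and the part that neither explained for 20.2%. With 1 residual degree of freedom the number of calls was not well fixed: it was 308 (3.23%) with the spread pooled over 18 arrays, of which 254 were among the 521, and 140, all among the 521, with no ploidy block. In 51 genes the call held in every setting tried that kept both pairs.

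**Figure D1:**
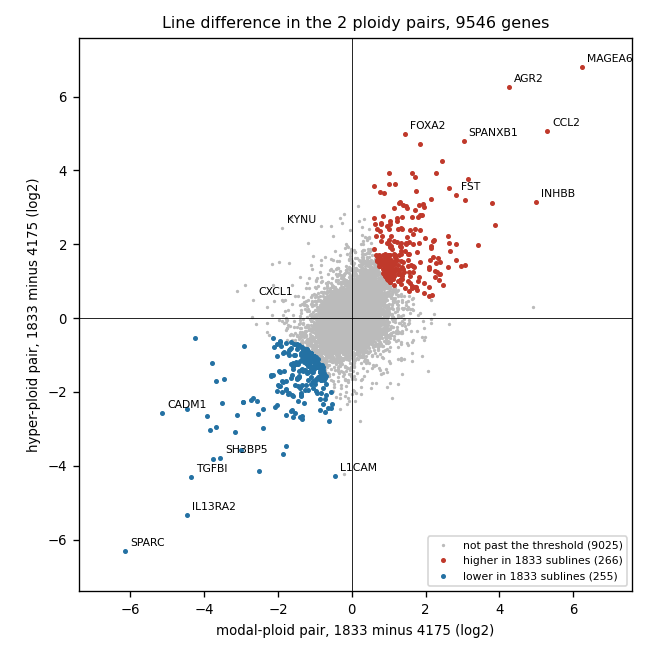
Difference between 1833 and 4175 (log2 of scaled signal + 16) in the modal-ploid pair (x axis) and in the hyper-ploid pair (y axis) for 9546 genes, 1 point a gene. The 266 red and 255 blue genes passed the threshold and all lie in the lower left and upper right of the plot, where the threshold itself places them, with MAGEA6 and SPARC at the ends.

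CCL2, AGR2 and INHBB were far higher in the 1833 sublines. Signals below are in units after scaling to a common array median, and pairs of signals are given modal-ploid first. CCL2, the chemokine that attracts monocytes, measured 3218 and 3243 in the 1833 sublines and 66.9 and 80.2 in the 4175 sublines. Both 4175 arrays lay at or below their 40th percentile, so the difference was at least 40.6-fold; on the log2(signal + 16) scale, which understates changes of dim genes, it was 5.18 (0.27 SE, adjusted p = 6.18e-07). CCL2 reached only 7.05 to 155 on the 15 other arrays, and the original 1833 line measured 15.6. Genes were kept if at least 2 of the 19 arrays exceeded their 40th percentile. Outside the 1833 sublines only the parental array did so for CCL2, so these sublines brought it into the test. The CCL2 call is therefore a description. AGR2, a disulfide isomerase of the endoplasmic reticulum, measured 1292 and 1557 against 52.5 and 4.43, a difference of at least 17.8-fold (log2 5.26, 0.39 SE, adjusted p = 1.64e-05). Here the original lines showed the same order, with 1463 in 1833 and 36.5 in 4175. INHBB, the subunit of activin B, measured 750.1 and 290.0 against 8.32 and 18.8, at least 5.86-fold higher (log2 4.06, adjusted p = 8.45e-05), whereas the original lines were near each other at 267 and 204. Its higher level stood in the modal-ploid 1833 subline.

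CST1 and CST4, cystatins that inhibit cysteine proteases, and the trefoil peptide TFF2 were also higher. CST1 measured 683 and 479.6 against 33.9 and 41.1 (log2 difference 3.46, 0.28 SE, adjusted p = 3.78e-05). CST4 measured 880.0 and 897 against 148 and 31.5 (log2 3.36, adjusted p = 0.00034). Whether the probe sets of these related cystatins bind each other's transcripts was not tested. With the pooled spread neither cystatin passed (adjusted p = 0.148 and 0.0888), and both were much brighter in the original 1833 line, at 8952 and 6822. TFF2 measured 479 and 204 against 17.9 and 22.2 (log2 3.20, adjusted p = 0.000204), and 1173 and 50.0 in the original lines. PCSK1N, an inhibitor of a prohormone-cleaving protease, was even in both pairs, at 304 and 335 against 22.1 and 22.0 (log2 3.14, adjusted p = 4.03e-05).

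CDH11, a mesenchymal cadherin first described in osteoblasts, measured 1740.0 and 1907 in the 1833 sublines and 472 and 56.9 in the 4175 sublines (log2 3.28, 0.49 SE, adjusted p = 0.00232). FOXA2, a transcription factor of endodermal tissues, measured 678 and 698 against 239 and 6.57 (log2 3.21, adjusted p = 0.00694). For both genes the 1833 sublines were even and the hyper-ploid 4175 subline was far below the modal-ploid one, so the size of the difference rested mostly on the hyper-ploid pair. Neither passed without the ploidy block (adjusted p = 0.0907 and 0.152). Of the 3 FOXA2 probe sets kept, the lowest gave a log2 difference of -0.51, opposite to the probe set used.

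MAGEA6, a cancer-testis gene of the X chromosome, gave the largest difference of all genes tested. Cancer-testis genes are normally active in germ cells and are kept silent in most other tissues, in part by methylation of CG dinucleotides in their promoters. MAGEA6 measured 3825 and 5748 in the 1833 sublines and 35.3 and 35.8 in the 4175 sublines, at least 58.9-fold higher (log2 6.51, 0.28 SE, adjusted p = 1.06e-07). On the 15 other arrays it lay between 4.39 and 81.1, at or below the 40th percentile on every one, and the original 1833 line measured 17.3. The filter needed 2 arrays above that percentile, so MAGEA6 entered the test only through the 1833 sublines. Its call is therefore a description. MAGEA12 followed the same pattern, with 686 and 978 against 63.5 and 56.4 (log2 3.46, adjusted p = 3.78e-05) and at most 119.6 on the other arrays.

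The promoters of these 2 genes are printed to show how alike they are, from RefSeq for GRCh38.p14, each with 250 bases before and 50 after a transcription start and with each CG in capitals. The motif searched was CG, which reads the same on both strands. The MAGEA6 window is chrX:152769640-152769939, minus strand, and holds 19 CG; 42.9% of 35116 promoter windows of the table hold as many or more, and the median is 14.
MAGEA6: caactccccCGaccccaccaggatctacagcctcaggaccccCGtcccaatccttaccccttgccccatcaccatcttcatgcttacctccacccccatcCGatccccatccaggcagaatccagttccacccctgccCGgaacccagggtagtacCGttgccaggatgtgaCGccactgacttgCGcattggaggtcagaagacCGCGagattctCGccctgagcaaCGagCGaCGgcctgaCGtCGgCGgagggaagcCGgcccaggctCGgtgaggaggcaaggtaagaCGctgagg
The second of the 2 MAGEA12 windows in the table is chrX:152733612-152733911, plus strand, with 15 CG.
MAGEA12: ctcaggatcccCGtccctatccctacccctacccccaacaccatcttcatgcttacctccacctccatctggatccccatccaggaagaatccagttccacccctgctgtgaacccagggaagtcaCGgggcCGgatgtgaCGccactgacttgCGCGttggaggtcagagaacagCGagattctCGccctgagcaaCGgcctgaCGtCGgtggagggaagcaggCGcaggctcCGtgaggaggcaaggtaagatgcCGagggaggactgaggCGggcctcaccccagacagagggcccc
In a global alignment 236 bases of this MAGEA12 window were identical to the MAGEA6 window. The other MAGEA12 window, chrX:152733507-152733806, was less alike, with 203 identical bases and 9 CG. The MAGEA3 window, chrX:152698544-152698843, plus strand, was identical to that of MAGEA6 at 300 of 300 bases. A count of CG in a window describes its sequence and says nothing of its methylation in these cells.

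The rest of the family was listed after the values had been seen, so its counts are a description. Among 11 measured genes of the MAGE-A, MAGE-B, MAGE-C, SSX, SPANX and CTAG families, 6 were higher and 1 lower in the 1833 sublines, against 2.79% and 2.67% of all genes. MAGEA1 measured 88.3 and 94.2 against 6.40 and 9.48, and MAGEA11 54.2 and 124.8 against 4.16 and 4.89, both dim. MAGEA1, like MAGEA6, passed the filter only through the 1833 sublines. SPANXB1, a sperm protein, measured 3211 and 6211 against 379.7 and 208 (log2 3.91, adjusted p = 9.63e-05), but did not pass with the pooled spread (adjusted p = 0.0949), and it ranged from 24.6 to 9591 over the 15 other arrays. SSX1 measured 855.7 and 1337 against 456.4 and 112.5, a gap carried mostly by the hyper-ploid 4175 subline. MAGEA11 and SSX1 did not pass with the pooled spread either (adjusted p = 0.137 and 0.222). MAGEB2 went the other way, with 57.2 and 70.1 in the 1833 and 566 and 1006 in the 4175 sublines (log2 -3.28, adjusted p = 4.03e-05), and the original lines kept that order at 43.5 and 661. MAGEC1, MAGEC2, SSX3 and CTAG2 did not pass. Members of these families share long stretches of sequence, and the platform marks the probe sets of MAGEA1, MAGEA6, MAGEA12, SSX1 and SSX3 as able to bind related transcripts, so which family member a probe set reports is uncertain.

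**Figure D2:**
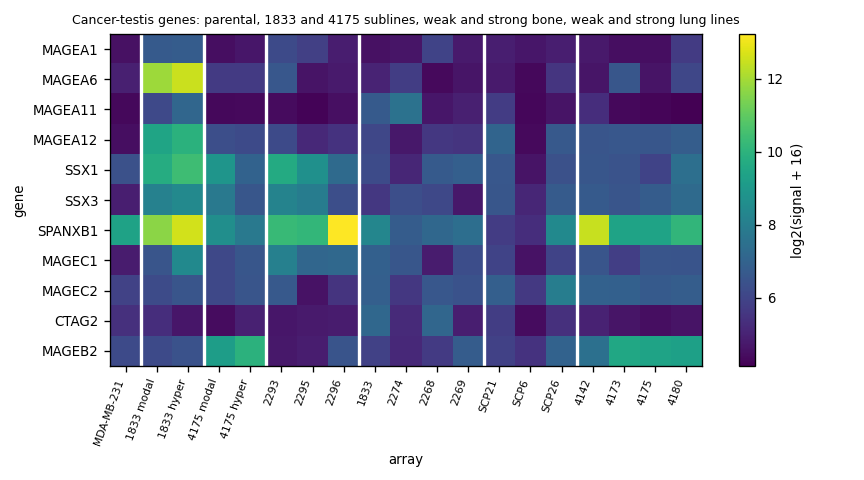
Level of 11 cancer-testis genes (rows, log2 of scaled signal + 16, colour) on the 19 arrays (columns, 1 array each, white lines between groups). MAGEA6 and MAGEA12 are bright only in the 2 columns of the 1833 ploidy sublines, and MAGEB2 is bright in the 4175 sublines and the strong lung lines 4173, 4175 and 4180.

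SPARC, IL13RA2 and TGFBI were far lower in the 1833 sublines. SPARC, a matricellular protein that binds collagen, measured 33.9 and 28.1 in the 1833 sublines and 3481 and 3499 in the 4175 sublines, at least 44.2-fold lower (log2 -6.22, 0.27 SE, adjusted p = 1.06e-07). The original lines gave 9.14 and 3864 and the parental line 4.87, so the 4175 sublines were the side apart from the parental level. IL13RA2, a decoy receptor for interleukin 13, measured 226 and 72.7 against 5384 and 3564 (log2 -4.91, 0.29 SE, adjusted p = 2.55e-06), and 7.47 in the parental line. TGFBI, a matrix protein induced by TGF-beta, measured 159 and 223 against 3565 and 4688 (log2 -4.33, adjusted p = 2.84e-06). For TGFBI the parental line was at 3897, near the 4175 sublines, so here the 1833 sublines were the side apart; the original 1833 line was between at 832.

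CADM1, FKBP10 and SH3BP5 followed. CADM1, an immunoglobulin-type adhesion molecule, measured 14.1 and 70.8 against 1049 and 496 (log2 -3.85, 0.46 SE, adjusted p = 0.000541). FKBP10, an endoplasmic reticulum chaperone of collagen, measured 21.5 and 14.3 against 495 and 409 and was almost equal in size in both pairs (log2 -3.79, adjusted p = 1.09e-05). SH3BP5, an adaptor that binds the kinase BTK, measured 119.6 and 157 against 1600.0 and 2400.1 (log2 -3.69, adjusted p = 1.38e-05). The 4175 sublines exceeded every one of the 15 other arrays for FKBP10 and SH3BP5, which reached at most 176 and 388 there. Further genes were brighter in both 4175 sublines. IRX5, an Iroquois transcription factor, measured 22.6 and 43.3 against 533 and 465, and KCNK2, a potassium channel, 9.53 and 6.58 against 130.0 and 386. KCNK2 reached at most 74.2 on the 15 other arrays and passed the filter only through the 4175 sublines, so its call is a description. SLCO3A1, an organic anion transporter, measured 11.9 and 46.5 against 341 and 464, and ADIRF, a nuclear protein known from fat cell differentiation, 12.8 and 9.47 against 418 and 144. Log2 differences of these 4 genes were -3.43, -3.33, -3.31 and -3.28, with adjusted p between 4.03e-05 and 0.000266.

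**Figure D3:**
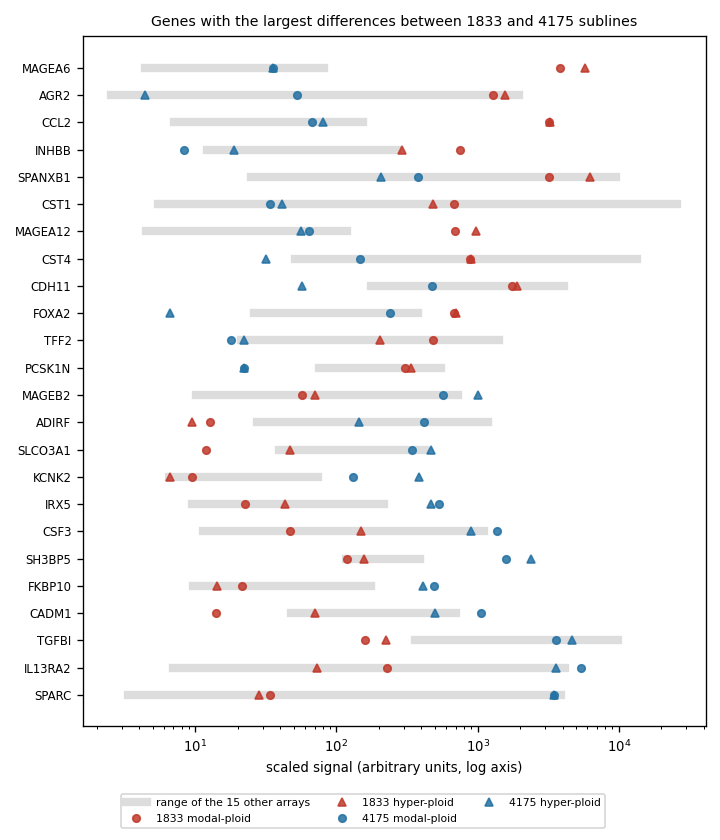
Scaled signal (x axis, arbitrary units, log scale) of the 12 genes with the largest positive and the 12 with the largest negative difference. Points are the 4 single ploidy arrays, red for 1833 and blue for 4175, and grey bars span the 15 other arrays; MAGEA6 and CCL2 of the 1833 sublines and SH3BP5 and FKBP10 of the 4175 sublines lie beyond the bars.

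Among genes known from earlier work on bone metastasis of these lines, follistatin, ADAMTS1 and CXCR4 were higher in the 1833 sublines and IL11 did not pass the threshold. Such genes were picked elsewhere from lines related to 1833, so their direction is not independent evidence. Of 8 measured members 3 were higher and 0 lower, against 2.79% and 2.67% of all genes, and the median difference was 0.87 against 0.03 over all genes. FST, which binds and blocks activins, measured 7809.9 and 5513 in the 1833 sublines and 1093 and 528 in the 4175 sublines (log2 3.08, 0.28 SE, adjusted p = 6.44e-05). ADAMTS1, a matrix metalloprotease that releases growth factors, measured 1014 and 1499 against 294 and 122 (log2 2.59, adjusted p = 0.00167). CXCR4, the receptor for CXCL12, measured 593 and 464 against 127 and 168 (log2 1.74, adjusted p = 0.00416). All 3 also passed with the pooled spread, but ADAMTS1 and CXCR4 did not pass in every other setting. IL11, a cytokine that promotes osteoclast formation, measured 1320.3 and 2493 in the 1833 sublines and 3932 and 2947 in the 4175 sublines (log2 -0.90, adjusted p = 0.141). Both 4175 sublines were brighter for IL11 than the original 4175 line at 327, while the original 1833 line measured 2101. MMP1, a collagenase, measured 9976 and 4950.3 against 8278 and 889, high on both sides except in the hyper-ploid 4175 subline (adjusted p = 0.0788). CCN2 measured 4876 and 5205 against 3462 and 4381, FGF5 89.9 and 112 against 109 and 74.1 and SRGN 3933 and 4827 against 5208 and 4102, and none of these passed.

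Among genes known from lung metastasis of these lines, 6 of 17 measured members were lower in the 1833 sublines and 0 higher, against 2.67% and 2.79% of all genes. The list's median was -0.29, against 0.03 over all genes. The same caution about how such genes were picked applies. Besides SPARC and IL13RA2, VCAM1, an endothelial-type adhesion molecule, measured 43.5 and 50.2 against 752 and 200.2 (log2 -2.70, 0.39 SE, adjusted p = 0.0019). MMP2, a gelatinase, measured 87.8 and 69.2 against 420.0 and 440.1 (log2 -2.25, adjusted p = 0.000601) but did not pass with the pooled spread (adjusted p = 0.202). Tenascin C, TNC, measured 277 and 162 against 518 and 979 (log2 -1.68, adjusted p = 0.019), and the EGF receptor ligand EREG 182 and 209 against 631 and 389.6 (log2 -1.28, adjusted p = 0.0274). TNC missed the threshold with the pooled spread (adjusted p = 0.12), and without the ploidy block VCAM1, EREG and TNC all missed it (adjusted p = 0.0647, 0.0778 and 0.0826). The other 11 members did not pass. CXCL1, a neutrophil chemokine, measured 240.4 and 876 against 1609.9 and 617, and KYNU, an enzyme of tryptophan breakdown, 936 and 3212 against 3486 and 582. In both genes the modal-ploid pair was lower and the hyper-ploid pair higher in 1833, so the lines crossed. PTGS2 measured 134 and 288 against 243 and 249 and ID1 1268 and 796 against 1560.5 and 1198. ROBO1, a guidance receptor, was closest to the threshold among those pointing the other way, at 600.0 and 505 against 242 and 289 (log2 1.01, adjusted p = 0.0542); NEDD9, LTBP1, FSCN1, ANGPTL4 and MAN1A1 lay between -0.23 and 0.90 on the log2 scale.

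More matrix genes were lower than higher in the 1833 sublines. Of 53 measured collagens and matrix proteins 14 were lower and 1 higher, against 2.67% and 2.79% of all genes, and the median difference was -0.23 against 0.03 over all genes. COL7A1, the anchoring fibril collagen of skin, measured 77.6 and 168 against 1061 and 892 (log2 -2.92, adjusted p = 0.000309). COL6A1 and COL6A2, chains of the same microfibril collagen, differed by -1.85 and -2.21, COL1A2 by -2.04, COL5A1 by -1.80 and COL18A1 by -1.64. The laminin chains LAMA1 and LAMA4 differed by -1.60 and -1.71, fibronectin FN1 by -1.48 and fibulin FBLN1 by -1.15, all lower in the 1833 sublines. THBS1, an inhibitor of vessel growth, measured 1479 and 979 against 2714 and 4544 (log2 -1.53, adjusted p = 0.0203). LOXL1, which cross-links elastin, was the exception, at 530.4 and 338 against 139 and 26.1 (log2 2.44, adjusted p = 0.00108). With the pooled spread 9 were lower and neither THBS1 nor LOXL1 passed (adjusted p = 0.0673 and 0.091), nor did these 2 without the ploidy block (adjusted p = 0.0756 and 0.0907); the split was 10 lower and 1 higher when a trimmed mean set the array scale and 8 and 1 after quantile normalisation. Of 35 matrix proteases and inhibitors 2 were higher and 3 lower, against 2.79% and 2.67% of all genes. Higher were ADAMTS1 and the plasminogen activator PLAT (4281 and 3102 against 1873 and 1213, adjusted p = 0.0191). Lower were MMP2, the urokinase PLAU (log2 -1.09, adjusted p = 0.0446) and CTSS (154 and 198 against 637 and 317, adjusted p = 0.0407). MMP2 and CTSS did not pass with the pooled spread (adjusted p = 0.192 for CTSS), and PLAT and CTSS did not without the block (adjusted p = 0.0865 and 0.118).

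**Figure D4:**
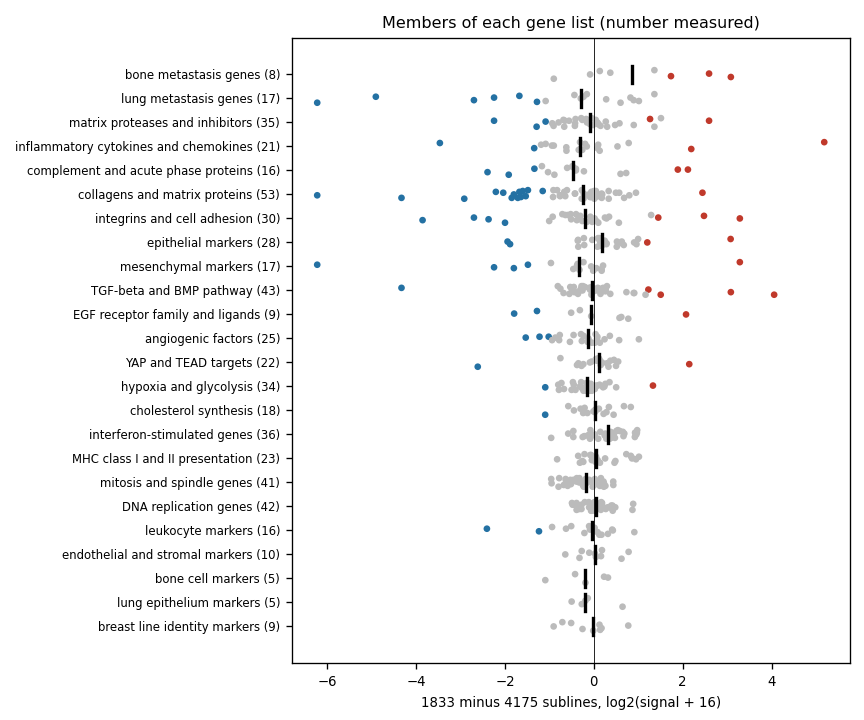
Difference between 1833 and 4175 sublines (x axis, log2 of scaled signal + 16) for each measured member of 24 gene lists (1 point a gene, black bar the median). Red and blue points passed the threshold; the collagens and matrix proteins have 14 blue points and 1 red, and the mitosis and DNA replication genes have none.

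Cytokines changed in both directions. Of 21 measured members 2 were higher, CCL2 and CSF1, and 2 lower, CSF3 and IL6, against 2.79% and 2.67% of all genes. CSF1, the macrophage growth factor, measured 1806 and 2782 against 737 and 308 (log2 2.19, 0.38 SE, adjusted p = 0.00536). CSF3, the granulocyte growth factor, measured 46.8 and 149.6 against 1365 and 902 (log2 -3.46, adjusted p = 0.000356). IL6 measured 783 and 1230.5 against 2256 and 2802 (log2 -1.34, adjusted p = 0.0144), but not with the pooled spread (adjusted p = 0.388). The median of the list was -0.75 in the modal-ploid pair and 0.26 in the hyper-ploid pair, so the list as a whole had no common direction. Among 16 complement and acute phase proteins C4BPB (1226 and 793 against 329 and 139, log2 2.12) and the pentraxin PTX3 (1111 and 1283 against 434 and 221, log2 1.89) were higher, and SERPINA1 (log2 -1.92), C1S (log2 -1.34) and C3 (log2 -2.39) lower. These 2 and 3 calls stand against 2.79% and 2.67% of all genes. The median of this list was -0.48, with 4 members above and 12 below 0. C3 rested on the modal-ploid pair, at 16.9 and 145 against 603 and 219, and none of the 3 lower genes passed with the pooled spread. Without the ploidy block CSF1, IL6, C4BPB, PTX3 and C3 missed the threshold (adjusted p = 0.0624, 0.0722, 0.0628, 0.0548 and 0.164).

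Called adhesion, epithelial and mesenchymal genes pointed in both directions. The counts of calls below stand against 2.79% higher and 2.67% lower over all genes. Over all measured members, 20 epithelial genes lay above and 8 below 0 (median 0.17), 5 mesenchymal genes above and 12 below (median -0.32) and 12 adhesion genes above and 18 below (median -0.21), against 5015 and 4531 of all genes (median 0.03). Among 30 integrins and adhesion genes 3 were higher, CDH11, ITGB2 and ITGA10, and 4 lower, CADM1, VCAM1, L1CAM and ITGB4. ITGB2, the beta chain of leukocyte integrins, measured 444 and 628 against 103 and 63.9 (log2 2.48, adjusted p = 0.000737), and ITGB4, the partner of ITGA6 in hemidesmosomes, measured 465 and 232 against 1952 and 953 (adjusted p = 0.00117). Of 28 epithelial genes KRT19 and OCLN were higher and KRT7 and PPL lower. KRT19 measured 5068 and 3207 against 802 and 265 (log2 3.08, 0.30 SE, adjusted p = 0.000105), while KRT7, a keratin of simple epithelia as well, measured 1132 and 631 against 3784 and 2652 (log2 -1.89, adjusted p = 0.00189). Of 17 mesenchymal genes CDH11 was higher and SPARC, MMP2, COL5A1 and FN1 lower, so the lists hold genes already named above. OCLN did not pass with the pooled spread (adjusted p = 0.184), and KRT7 and OCLN missed the threshold without the ploidy block (both adjusted p = 0.0548). Beside these, the leukocyte markers HCLS1 (51.3 and 73.5 against 382 and 409.8, log2 -2.41) and LAPTM5 (1252 and 1573 against 4391 and 2516, log2 -1.23) were lower in the 1833 sublines, LAPTM5 not without the block (adjusted p = 0.102); PTPRC lay at or below the 40th percentile on all 4 arrays.

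Growth factor pathways gave single genes. Their counts stand against 2.79% higher and 2.67% lower over all genes. Of 43 TGF-beta and BMP genes 4 were higher, INHBB, FST, TGFB1 and SMAD6, and 1 lower, TGFBI. The ligand TGFB1 measured 1251 and 1421 against 635 and 332 (log2 1.50, adjusted p = 0.0161), though its probe sets disagreed in sign. The inhibitory SMAD6 differed by 1.23 (adjusted p = 0.0297), and the list's median was -0.05. Among 9 EGF receptor genes the ligand NRG1 was higher at 1646 and 2487 against 731 and 298 (log2 2.07, adjusted p = 0.00761), and TGFA (388 and 328 against 1444 and 1130.0, log2 -1.79, adjusted p = 0.00223) and EREG were lower. Of 22 YAP targets ANKRD1 was higher (827 and 563 against 168 and 119, log2 2.15) and DLC1 lower (181 and 164 against 1515 and 855, log2 -2.61), with a DLC1 probe set of the opposite sign. TGFB1 and NRG1 missed the threshold without the ploidy block (adjusted p = 0.0763 and 0.0702). Angiogenic factors had 3 of 25 lower, THBS1, SLIT2 and PDGFA, against 2.67% of all genes, and none of these passed with the pooled spread (adjusted p = 0.0673, 0.101 and 0.0653). Hypoxia and glycolysis genes had 1 higher, HK2 (1396 and 874 against 512 and 361), and 1 lower, ALDOC (279.7 and 379 against 577 and 881), of 34, and of 18 cholesterol synthesis genes EBP alone was lower (1742 and 2192 against 3961 and 4436). HK2 and EBP did not pass with the pooled spread (adjusted p = 0.0626 and 0.205), and HK2, ALDOC and EBP did not without the block (adjusted p = 0.0843, 0.11 and 0.0702).

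Cell division, interferon response and antigen presentation genes had 0 members past the threshold. In limma 0 of 41 mitosis and spindle genes, 0 of 42 DNA replication genes, 0 of 36 interferon-stimulated genes and 0 of 23 MHC presentation genes passed, and the pooled spread gave 0 in each as well. Over all genes 5.46% passed, and 3.23% with the pooled spread, so lists of this size would hold few calls at these shares. At an unadjusted p under 0.05 there were 7 (17.1%), 2 (4.76%), 10 (27.8%) and 7 (30.4%), against 1869 of 9546 genes (19.6%). The interferon-stimulated and MHC lists thus lay above the share of all genes there. The members lay between -0.96 and 0.44 for mitosis, -0.49 and 0.88 for DNA replication, -0.96 and 0.98 for interferon-stimulated and -0.83 and 1.01 for MHC genes. Endothelial and stromal, bone cell, lung epithelium and breast identity markers gave 0 of 10, 0 of 5, 0 of 5 and 0 of 9, with 1, 1, 1 and 3 at the unadjusted threshold and 0 with the pooled spread. A miss of this threshold does not show that the levels were equal.

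The strong bone and strong lung lines were compared next, to see which of their differences recurred in the sublines. SPARC, IL13RA2, S100A2, PTPRN2 and PPL were lowest, and CST1, TFF1, TFF2, ADAMTS1 and PNPLA4 highest, in the strong bone lines relative to the strong lung lines. Over the 4 strong bone and 4 strong lung lines 2195 genes (23.0%) passed, 1219 higher (12.8%) and 976 lower (10.2%) in bone lines. Spike-in and 18S levels also differed between these sets, as given above, and organ and array handling cannot be told apart there. The original 1833 and 4175 lines are among the 8, and without them 947 genes passed. When a trimmed mean set the array scale the split of the calls was 1129 higher and 1452 lower, and after quantile normalisation 1222 and 1408.

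Most genes called between the organ groups kept their sign in the mean subline difference, and fewer kept it in both ploidy pairs. Of the 2195 genes, 1599 (72.8%) had the same sign in the mean subline difference, against 60.6% of all genes. Without the original lines the share was 75.1%. In both ploidy pairs the sign was kept by 730 of the 1219 genes higher in bone lines (59.9%). Of the 976 lower genes 468 (48.0%) kept it in both pairs. The share over all genes for both pairs was not computed. Past the threshold in the sublines were 106 of the 1219 genes higher in bone lines (8.70%) in the same direction and 10 in the opposite one, and 85 of the 976 lower genes (8.71%) in the same and 8 in the opposite one. Over all genes 2.79% were called higher and 2.67% lower in the 1833 sublines. Read from the other side, 39.8% of the 266 genes higher and 33.3% of the 255 genes lower in the 1833 sublines were called the same way between the organ groups. Over all genes those shares were 12.8% and 10.2%. Across genes the subline difference and the strong-line difference had r = 0.34 (Spearman's correlation 0.30), and 0.32 (0.28) without the original lines. For the 16 pairs of a strong bone with a strong lung line r lay between 0.19 and 0.34.

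The leading genes of the organ comparison differed in how far they recurred. SPARC differed by -6.71 between the strong lines and -6.22 between the sublines, IL13RA2 by -5.68 and -4.91, and S100A2, a calcium-binding protein, by -3.66 and -2.56. The sign was kept in these genes. PPL, the desmosomal plakin, differed by -3.39 and -1.94, and PTPRN2, a phosphatase-like protein of secretory granules, by -3.57 and -2.78. On the other side CST1 differed by 4.74 and 3.46, TFF2 by 3.68 and 3.20 and ADAMTS1 by 3.64 and 2.59. TFF1, another trefoil peptide, differed by 4.10 between the strong lines but measured only 99.0 and 73.5 against 28.8 and 57.5 in the sublines (log2 0.82, adjusted p = 0.155), and the test of the difference between contrasts gave an adjusted p of 0.0817. IL11 differed by 2.21 between the strong lines and -0.90 between the sublines, and that difference between contrasts did not pass either (adjusted p = 0.125). PNPLA4 differed by 3.62 and 1.54, with its probe sets of opposite sign in the sublines. The subline calls of PTPRN2 and PNPLA4 were lost with the pooled spread (adjusted p = 0.392 and 0.21), and those of S100A2, PTPRN2 and PNPLA4 without the block (adjusted p = 0.051, 0.0681 and 0.116).

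**Figure D5:**
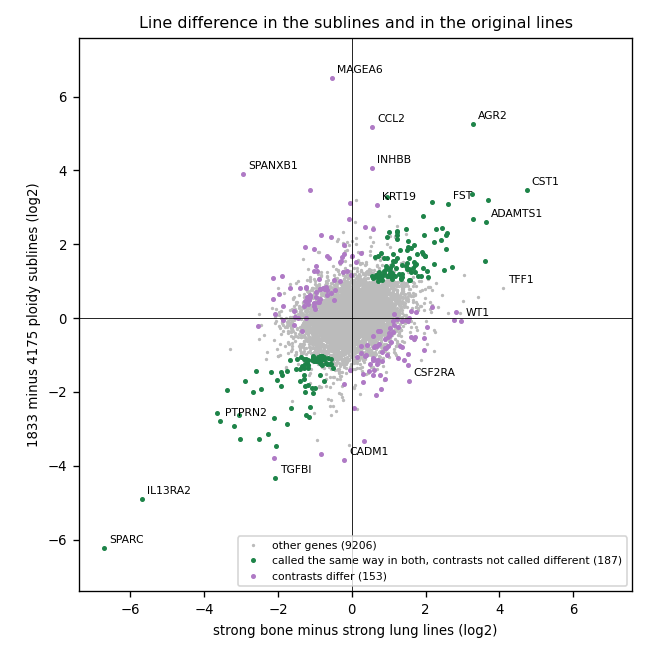
Difference between strong bone and strong lung lines (x axis, log2) and between 1833 and 4175 sublines (y axis, log2) for 9546 genes. Green genes were called the same way in both with no called difference between the contrasts, and purple genes are the 153 whose contrasts differed; MAGEA6 and CCL2 lie high on the y axis near 0 on the x axis.

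MAGEA6, SPANXB1 and CCL2 stood out when the subline difference itself was tested against the organ difference. This test called 153 genes (1.6%), 76 with the more positive and 77 with the more negative difference in the sublines. Before scaling, the ploidy arrays had lower median signals than the strong line arrays, as given above. The part of that in these calls was not tested. MAGEA6 led, with 7.04 between contrasts (adjusted p = 0.00277), followed by SPANXB1 with 6.85 (adjusted p = 0.0316), CCL2 with 4.64 (adjusted p = 0.00277), MAGEA12 with 4.60 and INHBB with 3.51. For SPANXB1 the organ groups ran the other way (-2.94). KRT19 and ITGB2 also differed more in the sublines, by 2.41 and 2.12. With the more negative difference were KCNK2 (-3.65), CADM1 (-3.65), CSF2RA (-3.23), WT1 (-3.04) and SH3BP5 (-2.86). MAGEA6 and KCNK2 passed the filter only through the ploidy sublines, and CCL2 only with them, so the calls of these genes are descriptions. CSF2RA, a receptor chain for the growth factor CSF2, was higher in strong bone than strong lung lines by 1.54 but measured 96.2 and 21.0 in the 1833 and 275 and 134 in the 4175 sublines, a subline difference that did not pass with the pooled spread (adjusted p = 0.0511) or without the block (adjusted p = 0.169). WT1, a zinc finger transcription factor, was higher in bone lines by 2.96, yet lay at or below the 40th percentile on all 4 ploidy arrays, and its probe sets disagreed in sign. Leaving out single strong lines moved this count to between 61 (without 2274) and 209 (without 2269), leaving out both original lines gave 44, and a single ploidy pair, with the spread taken from the 14 strong and weak line arrays, gave 15 or 35.

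Some line differences were uneven between the 2 ploidy pairs, and 6 such genes were named for it. L1CAM, a neural adhesion molecule, measured 338 and 54.7 in the 1833 sublines and 472 and 1356 in the 4175 sublines, so the pairs differed by -0.46 (modal-ploid) and -4.28 (hyper-ploid). The chloride transporter CLCN4 measured 355 and 409.5 against 231 and 19.4 and the epithelial transcription factor SPDEF 583 and 831 against 282 and 39.3. In these 2 genes, as in FOXA2 and CDH11, the hyper-ploid 4175 subline was the low array, while for L1CAM the hyper-ploid 1833 subline was low and for C3 the modal-ploid 1833 subline. With 1 array for each combination of line and ploidy, this unevenness was not tested. Without the block L1CAM, CLCN4 and SPDEF missed the threshold (adjusted p = 0.176, 0.225 and 0.136), and SPDEF did with the pooled spread (adjusted p = 0.0908).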

How the data were processed

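The authors deposited linear ratios, 1 value for each of 22283 probe sets and 19 arrays; the image analysis and normalisation software is not given in the sources used here. Ratios ran from 0.00115 to 361 and fell into 2 sets with separate divisors, 1833 sublines in the first and 4175 sublines in the second, so they cannot be compared directly across sets. Signals in steps of 0.1 units were recovered from the ratios with Python 3.11.15 for 22282 probe sets, and 1 was left out. This step was tested on simulated data. The log2 divisors of the 2 sets correlated with r = 0.97. The design had assumed expression values, so the recovered signals were analysed in place of the ratios.

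Arrays were scaled to a common median and values taken as log2(signal + 16). Probe sets were kept if 2 or more of the 19 arrays had them above the 40th percentile of that array, the brightest standing for each of 9546 genes, named from the platform annotation. A fold written as at least compares with the 40th percentile level. limma 3.58.1 (R 4.3.3) fitted line with ploidy as a block on 4 arrays (1 residual degree of freedom, prior 11.1), the strong and weak lines as 4 group means on 14 arrays, and the difference of the contrasts on 18; p-values were adjusted over all genes by the Benjamini-Hochberg method at 0.05. The comparison's pairing comes from the ploidy labels. The members and lists were chosen with earlier results of these data known. Named were the 12 largest differences each way, all bone and lung metastasis genes, up to 4 called genes of each other list, the 5 largest each way of both other comparisons and the 6 called genes whose pairs differed most; other genes of the short called lists and the cancer-testis family were named after their values were seen. Number of arrays, not depth, limits the precision.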

Additional observations from a re-analysis of the deposited data

Results flagged for a closer look

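For 15 of the 84 named genes the test of the difference between the subline and the strong-line contrasts passed (limma, adjusted over all genes). Higher in the sublines relative to the strong lines were MAGEA6 (7.04, adjusted p = 0.00277), CCL2 (4.64, adjusted p = 0.00277), INHBB (3.51, adjusted p = 0.0107), SPANXB1 (6.85, adjusted p = 0.0316), MAGEA12 (4.60, adjusted p = 0.0119), ITGB2 (2.12, adjusted p = 0.0296) and KRT19 (2.41, adjusted p = 0.00691). Lower were CADM1 (-3.65, adjusted p = 0.0235), FKBP10 (-1.67, adjusted p = 0.0192), SH3BP5 (-2.86, adjusted p = 0.00277), KCNK2 (-3.65, adjusted p = 0.0352), TGFA (-1.57, adjusted p = 0.0235), THBS1 (-2.30, adjusted p = 0.0408), CSF2RA (-3.23, adjusted p = 0.0107) and WT1 (-3.04, adjusted p = 0.0266). Values are differences of log2 differences. Since MAGEA6 and KCNK2 passed the filter only through the ploidy sublines, and CCL2 only with them, their calls are descriptions.

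In 7 named genes the lines differed in opposite directions in the modal-ploid and hyper-ploid pairs, and the difference was not tested, since there is 1 array for each combination. The modal-ploid difference minus the hyper-ploid difference was -0.74 for FGF5, -0.64 for SRGN, -3.16 for CXCL1, -0.98 for PTGS2, -4.31 for KYNU, 1.07 for MAN1A1 and -1.85 for WT1.

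In 13 of 168 groups of 4 strong lines examined over the named genes, a single line lay apart, with its gap to the nearest other line as a share of the group's range above Dixon's critical value for 4 samples; chance alone passes this in about 1 of 20 groups. The shares were 0.852 for FOXA2 in the bone line 2274, 0.837 for SPARC in the bone line 2269, 0.8295 for KCNK2 in the lung line 4175, 0.887 for MAGEB2 in the lung line 4142, 0.975 for CCN2 in the lung line 4180, 0.870 for EREG in the bone line 2268, 0.842 for TNC in the lung line 4175, 0.913 for SERPINA1 in the lung line 4142, 0.869 for PPL in the lung line 4142, 0.833 for HK2 in the lung line 4180, 0.911 for PTPRN2 in the bone line 2274, 0.925 for PTPRN2 in the lung line 4142 and 0.949 for CLCN4 in the lung line 4142. Line 4142 was the one apart in 5 of these.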

How the results depend on the processing

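No called gene among the 84 named reversed under any alternative. As called genes had the same direction in both pairs, this was largely fixed by the threshold and is no added support. The number of calls varied. The 521 subline calls became 308 with the pooled spread, 140 with no replicate block, 1022 with an intensity trend, 268 with trimmed mean scaling, 158 after quantile normalisation, 125 with pseudocount 4, 178 with no filter, 807 with a filter on 2 of the 4 ploidy arrays and 927 with a filter at the 60th percentile; a single ploidy pair gave 20 to 49, with the spread taken from the 14 strong and weak line arrays and each lone subline assumed to vary like them. The last alternative has fewer arrays, and for the others the cause was not tested. The ploidy pairing itself was weak: hyper minus modal differences in 1833 and 4175 had r = -0.03 across genes. Calls among list members (58 genes) became 26 with no block, 109 with the trend, 31 after quantile normalisation, 26 with pseudocount 4, 34 with no filter, 89 and 109 with the other filters, and 7 to 16 in a single pair. Calls among named genes (67) became 37 with no block, 43 after quantile normalisation, 39 with pseudocount 4 and 11 to 19 in a single pair; 28 held in all 11 settings with both pairs, and KCNK2 in the 10 that kept it. The organ comparison gave 947 without both original lines and 1503 to 2418 without single lines. The difference between contrasts gave 44 without both original lines, 246 with the trimmed mean, 255 after quantile normalisation, 91 with no filter and 15 to 209 with samples left out. The same-sign share was 75.1% without both original lines and 71.1% to 75.5% without single lines. Scaling moved the median of all genes from 0.03 to -0.04 at most. Uncalled genes reversed in a single pair were FGF5 (-0.24 to 0.51), SRGN (-0.40 to 0.23), CXCL1 (-2.66 to 0.50), PTGS2 (-0.79 to 0.20), KYNU (-1.88 to 2.43), MAN1A1 (-0.69 to 0.38) and WT1 (-1.01 to 0.84); WT1 also became 1.77 with pseudocount 4, 0.026 with pseudocount 64 and 0.57 over the mean of its probe sets.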

Other observations

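The parental line and the original lines give a further view of the genes that separated the sublines. Among the 266 genes higher in the 1833 sublines the parental array lay nearer to the 1833 level in 115 (43.2%), and among the 255 lower genes in 114 (44.7%), against 48.9% of all 9546 genes. Between the original 1833 and 4175 lines, which have 1 array each and no test, 91 of the 266 genes (34.2%) were more than 2-fold higher and 11 more than 2-fold lower, against 8.35% and 8.51% of all genes. Of the 255 lower genes 83 (32.5%) were more than 2-fold lower and 9 higher there.

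SERPINA1, AGR2 and TGFBI illustrate different positions of the parental line. SERPINA1, the inhibitor of neutrophil elastase, measured 1464 in the parental line, above all 4 sublines at 32.5, 42.0, 176.4 and 192.4. AGR2 measured 699 in the parental line, between the sublines of 1833 and of 4175, and TGFBI 3897, near the 4175 sublines. These arrays differ from the sublines in spike-in level, as given above, and the part of that in these values was not tested.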
